A study of Mus musculus with 9 samples.

Results

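The data described here are 5 2-colour Agilent arrays of cerebellum from SmoA1 mice that are wild-type for Pycard, out of 9 arrays in the series. They were chosen by their labels: every array whose Cy5 sample is marked as Pycard wild-type and of the SmoA1 strain, which the labels call a medulloblastoma strain. The sample on each array came from cerebellum at postnatal day 20. The other dye, Cy3, carried 1 common reference, a pool of cerebella from wild-type mice at postnatal day 16. The other 4 arrays hold SmoA1 cerebellum of the same age from mice that lack Pycard, against the same pool, so all 9 samples carry SmoA1. Each value is a log2 ratio of sample over pool, so values above 0 mean more signal in the sample than in the pool and values below 0 less. The labels do not give the promoter that drives SmoA1, and they do not say whether each array is a separate animal, so the spread between arrays may be in part technical.

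SmoA1 is an always-active form of Smoothened, the membrane protein that passes the Hedgehog signal into the cell. In the young cerebellum Purkinje cells release Sonic hedgehog, which binds Patched, frees Smoothened and switches on Gli transcription factors in the granule neuron progenitors of the outer surface. The signal keeps these progenitors dividing, and they stop, move inwards and mature into granule neurons over the first weeks after birth. Medulloblastoma of the Hedgehog type arises from the same progenitors. Pycard encodes ASC, an adaptor protein of the inflammasome, the complex that activates caspase-1.

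Against the pool, the SmoA1 cerebellum had a broad set of genes above 0 for cell division, its chromatin and RNA machinery, ribosomal proteins, immature neurons and microglia, and a broad set below 0 for myelin, Purkinje cells, synaptic signalling and matrix. Of 19087 named genes, 1879 were called higher (9.84%) and 1669 lower (8.74%), a call being an adjusted p under 0.05 in limma's moderated test of the mean of 5 arrays against 0. Over all 30654 values, unnamed features included, the shares were 8.62% and 7.17%. These shares, from all 5 arrays, are the background against which the counts of each gene group below are to be read. Counts with an array left out have smaller backgrounds of their own. With wild-type 1, 2, 3, 4 and 5 left out, 1395, 1031, 1751, 2212 and 1311 of 30654 values were called higher. The values called lower then numbered 821, 604, 1223, 1866 and 834. Large differences lay mostly on one side: 633 named genes were called higher by at least 1 and 207 lower by at least 1, and by at least 2 the counts were 201 and 5. The median called gene differed by 0.69, which is 1.62-fold.

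The comparison has limits that touch every result. Sample and pool differ in age, in SmoA1 and its strain background, and in dye, with no dye-swapped array, so these cannot be told apart. The pool is a single reference and its own spread does not enter the test. Only ratios were given, so levels, dim spots and saturated spots could not be assessed, and the labelled tissue could not be checked by the level of its markers. In bulk tissue, fewer cells of a type and less RNA per cell cannot be told apart. Arrays differed in spread: the SD over features was 0.656 on wild-type 1, 0.649 on wild-type 2, 0.983 on wild-type 3, 1.12 on wild-type 4 and 0.835 on wild-type 5. The correlation of an array with the mean of the other 4, across named genes that share the pool, lay between 0.55 and 0.753. For a group with at least 4 calls in a direction whose count moved by over 1.5 times, the text below gives the counts with wild-type 1, 2, 3, 4 and 5 left out, in that order, as the counts with each array left out. Counts of 1 to 3 calls are too few to be followed in this way. Feature means of 1 gene lay over 1.5 apart for Ccl19, Col11a1, Galr1, Hnrnpa1, Igf2bp3, Mbp, Otx1, Pou4f1, Sdc4, Smo, Sox11 and Tyms among the genes named here, so their averages rest on unlike probes. Over all values the count of calls fell from 4841 values to 2216 without wild-type 1, 1635 without wild-type 2, 2974 without wild-type 3 and 2145 without wild-type 5, and to 4078 without wild-type 4. An exact sign-flip test of 5 arrays cannot give a p below 0.0625, so calls rest on the t distribution assumed by limma's moderated test. The spread that limma shares over genes entered with a prior of 1.34 degrees of freedom, so most weight lay on each gene's own spread.

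**Figure D1:**
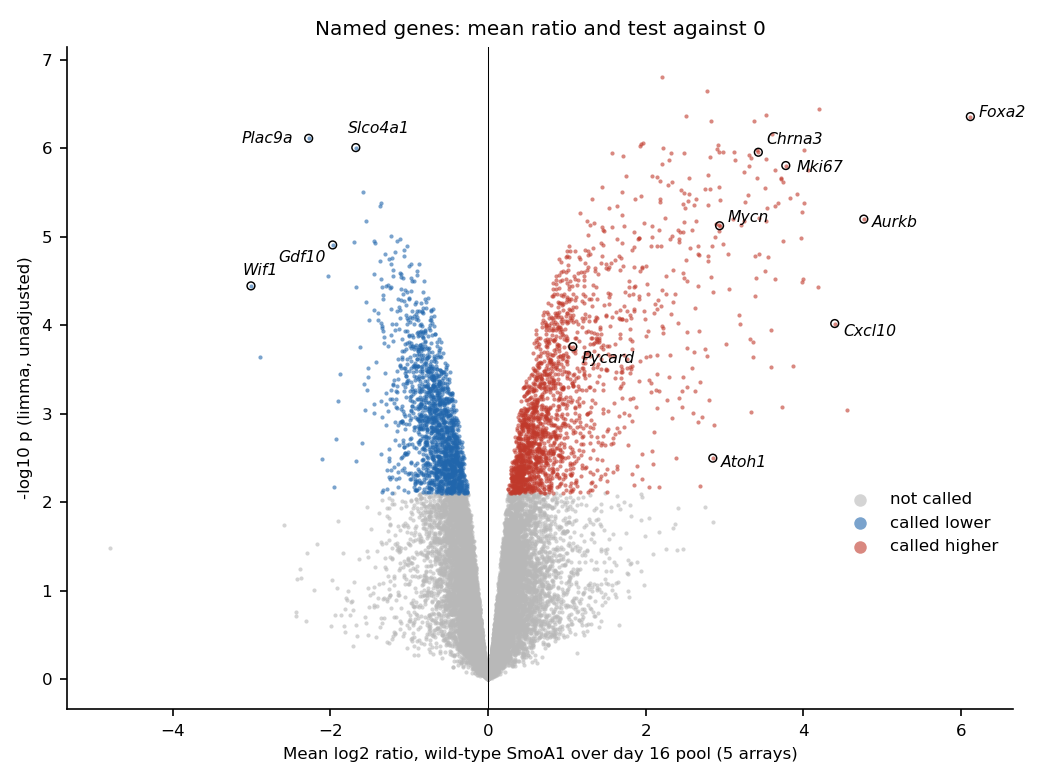
Mean log2 ratio of the 5 wild-type SmoA1 arrays over the day 16 pool (x axis) against the negative log10 of limma's unadjusted p (y axis), 1 point for each named gene. Red points are the 1879 genes called higher, blue points the 1669 called lower and grey points the rest; Foxa2 lies farthest to the right and Wif1 farthest to the left of the labelled genes.

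The Hedgehog pathway list was mixed. Of 20 measured genes, 9 were called higher and 1 lower, with a median of 0.45. Smo itself, the gene of the transgene's parent protein, had log2 ratios of 1.05, 0.75, 1.32, 2.77 and 2.29 on wild-type 1 to 5. All arrays lay above 0, with wild-type 4 and 5 the highest, and the mean was 1.64 ± 0.86 (SD, n = 5; limma adjusted p = 0.0326), a call lost without wild-type 1, 2, 3, 4 or 5 (adjusted p up to 0.103). The means of its 3 features ran from 0.64 to 2.95, so the probes gave unlike sizes. Gli1, a transcription factor and direct target of the pathway, read 0.52, 0.54, 1.0, 0.42 and 1.04, above 0 on every array (mean 0.71, adjusted p = 0.0229; not called without wild-type 1, 2, 3 or 5 (adjusted p up to 0.0762)). The receptor and feedback inhibitor Ptch1 read -0.16, -0.31, -0.08, 0.27 and 0.48 over 13 features and was not called (mean 0.04, 95% interval -0.31 to 0.39). Its feature means lay on both sides of 0, 6 above and 7 below, from -0.09 to 0.59. Hhip, which binds and restrains Hedgehog ligand, had a mean of -0.50 and was not called either (adjusted p = 0.0925). Without wild-type 4, Hhip was called lower (mean -0.65, limma adjusted p = 0.0272). Mycn, the oncogene that Hedgehog induces in granule progenitors, read 2.74, 2.83, 2.40, 3.45 and 3.27, a mean of 2.94 ± 0.42 or 7.67-fold. The D-type cyclins Ccnd2 and Ccnd1 averaged 2.88 and 0.88. Sfrp1, a secreted Wnt antagonist used as a marker of Hedgehog-type medulloblastoma, averaged 2.62 ± 0.33. Scube1, a secreted protein of the family that helps release Hedgehog, was the called member on the low side at -0.82, and that call was lost without wild-type 1, 2, 4 or 5 (adjusted p up to 0.0975). With each array left out, 5, 5, 5, 6 and 6 of the list were called higher.

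The largest mean of all called named genes belonged to Foxa2, the forkhead factor of the floor plate, where it lies downstream of Hedgehog in the mouse neural tube. Its ratios were 5.85, 5.72, 5.65, 6.69 and 6.68, within about 1 log2 unit of each other, with wild-type 4 and 5 the highest. The mean of its 10 features was 6.12 ± 0.52 (SD, n = 5), which is 69.5-fold over the pool (adjusted p = 0.00103), and no feature mean fell below 5.73. In the Forkhead list 3 of 26 were called higher and 2 lower: the mitotic factor Foxm1 (2.67) and the brain-enriched Foxo6 (2.15) also lay above 0, while Foxo1, which is restrained by insulin signalling, lay at -0.87. The other leading transcription factors are not general cell cycle genes. Tox3, a high mobility group factor, read 3.39, 3.93, 3.66, 4.48 and 4.61 (mean 4.01). Lhx2, a LIM homeobox factor best known from forebrain and eye, read 3.78, 4.59, 3.62, 4.53 and 3.40 (mean 3.98). Olig3, a factor of the dorsal hindbrain progenitors, read 2.52, 4.28, 2.78, 5.32 and 4.48 (mean 3.88), lowest on wild-type 1 and 3. The lowest single value among these 3 genes was the Olig3 value of wild-type 1, and all 3 stayed called with any 1 array left out.

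Neurogenic factors formed a group of their own. Among basic helix-loop-helix factors, 10 of 33 were called higher and 4 lower, and 0, 0, 1, 3 and 0 were lower with each array left out. Nhlh1, which marks newly born neurons, read 3.06, 3.18, 3.11, 3.58 and 2.71, a narrow range with a mean of 3.13 ± 0.31. Atoh1, the factor that defines granule progenitors, read 1.59, 1.88, 1.97, 4.70 and 4.13. The letter-titled arrays 1 to 3 lay below 2 and the number-titled arrays 4 and 5 above 4, and the mean of 2.85 lost its call without wild-type 1, 2, 3, 4 or 5 (adjusted p up to 0.0906). Insm1, a zinc finger factor of dividing neuronal progenitors, averaged 2.98 and the progenitor factor Barhl1 1.66. Sox11, a factor of immature neurons, read 2.17, 2.45, 2.28, 2.64 and 2.88 (mean 2.48), and its relative Sox4 averaged 1.10 with no call without wild-type 2 or 5 (adjusted p up to 0.0623). Neurod6 (2.12), better known from cortical neurons, was called as well. The granule progenitor list had 9 of 13 members called higher, none lower and a median of 1.66, while the granule maturation list had 4 of 14 lower, none higher and a median of -0.48. Gabra6, the receptor subunit of mature granule neurons, read -0.73, -0.95, -0.71, -0.35 and -0.92 (mean -0.73), below 0 on every array, and was not called without wild-type 1, 2 or 5 (adjusted p up to 0.062). The maturation list had 2, 1, 3, 3 and 1 calls with each array left out.

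Homeobox and POU factors split by gene. Of 35 hindbrain homeobox and paired factors, 10 were called higher and 3 lower, and with each array left out 6, 7, 8, 10 and 6 were higher. Pou4f1, a sensory neuron factor, read 2.08, 1.70, 2.20, 2.39 and 2.96 (mean 2.26), but its 2 features had means of 0.44 and 4.09. Otx1, a factor of anterior brain and of cerebellar precursors, read 1.69, 1.82, 2.03, 2.33 and 2.88 (mean 2.15). Pou3f2 averaged 1.69 while its paralog Pou3f1 averaged -1.06. The pair was picked after the values were seen to lie on opposite sides, so the lack of overlap between their arrays is no test. Lhx5, a factor of Purkinje and inhibitory precursors, averaged -0.91 and En2, which patterns the midbrain and cerebellum, -0.66 over 10 features. The 37 Hox genes, a family picked after the values were seen, gave 2 calls higher, none lower and a median of 0.14. Egr2, a hindbrain and myelin factor, read 1.99, 2.14, 1.99, 4.67 and 3.55, again far higher on wild-type 4 and 5 (mean 2.87; not called without wild-type 2 or 5 (adjusted p up to 0.0677)).

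**Figure D2:**
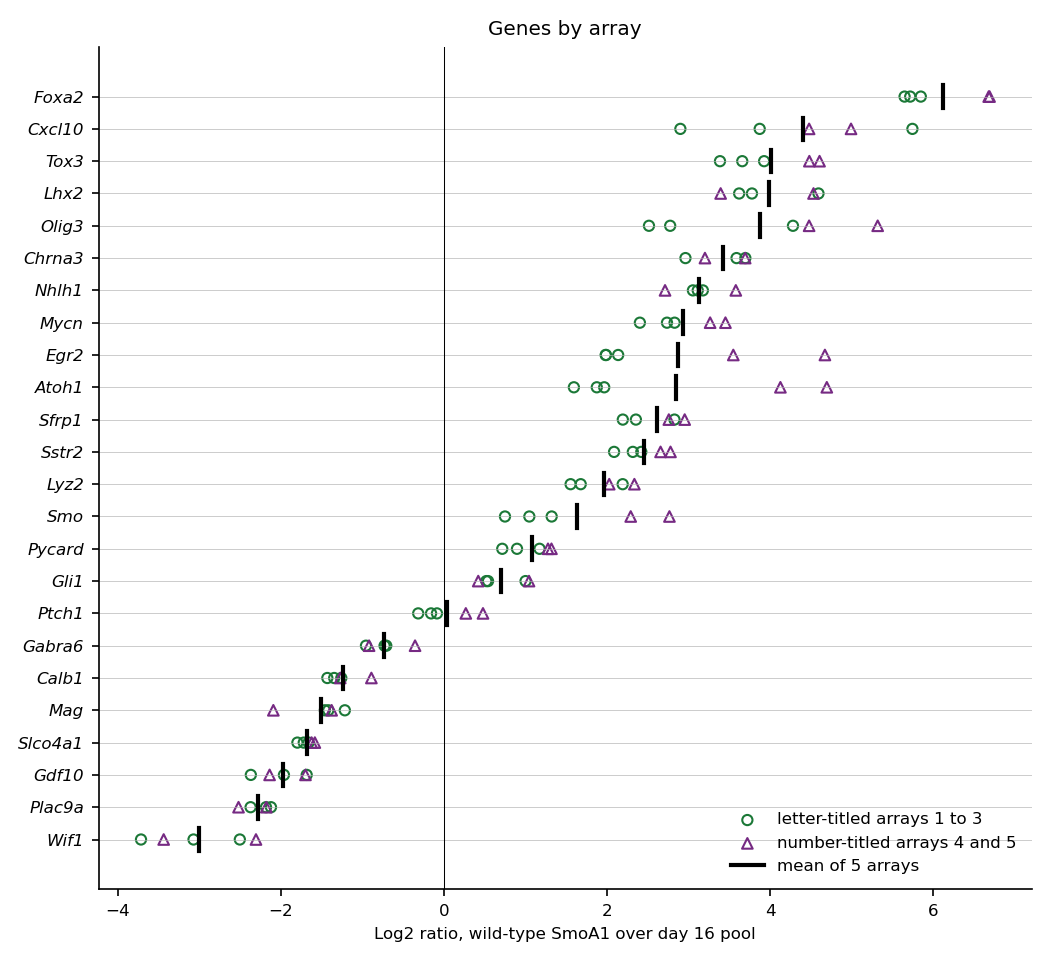
Log2 ratio over the day 16 pool (x axis) of 24 genes (rows, ordered by mean), 1 symbol for each wild-type array; circles are the letter-titled arrays 1 to 3 and triangles the number-titled arrays 4 and 5, and the black bar is the mean. Foxa2 lies near 6 on all 5 arrays, the triangles of Atoh1 and Egr2 lie apart from their circles, and the lower genes down to Wif1 lie below 0 on every array.

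Cell division genes led the higher side. All 23 measured mitosis genes lay above 0 on every array and 22 were called, with a median of 3.34; 25 of 27 replication genes were called higher with a median of 1.85. Some promoters of both lists carry short motifs of cell cycle control. The examples shown were chosen because their windows hold such a motif, so they say nothing of how common it is, and Mycn was added. E2F factors bind TTTGGCGC or TTTCGCGC and act on genes of replication, and the cell cycle homology region TTTGAA (CHR) is bound by the DREAM complex and acts on genes of mitosis. The stretches below are from RefSeq, build GRCm38.p6, written 5′ to 3′ on the gene's strand in lower case with each motif in capitals.
Mki67 (chr7:135716452-135716515, minus strand): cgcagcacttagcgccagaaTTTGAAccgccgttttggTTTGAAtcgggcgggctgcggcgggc
Top2a (chr11:99024187-99024388, minus strand): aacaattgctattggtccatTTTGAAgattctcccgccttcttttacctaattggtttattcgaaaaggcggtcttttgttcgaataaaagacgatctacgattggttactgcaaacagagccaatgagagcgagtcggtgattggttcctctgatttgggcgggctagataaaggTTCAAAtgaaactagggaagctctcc
Mcm6 (chr1:128359725-128359835, minus strand): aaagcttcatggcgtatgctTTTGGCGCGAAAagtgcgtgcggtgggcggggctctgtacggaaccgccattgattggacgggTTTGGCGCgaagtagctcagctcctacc
Mcm3 (chr1:20820263-20820294, minus strand): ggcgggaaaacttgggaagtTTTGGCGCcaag
Mycn (chr12:12941825-12942039, minus strand): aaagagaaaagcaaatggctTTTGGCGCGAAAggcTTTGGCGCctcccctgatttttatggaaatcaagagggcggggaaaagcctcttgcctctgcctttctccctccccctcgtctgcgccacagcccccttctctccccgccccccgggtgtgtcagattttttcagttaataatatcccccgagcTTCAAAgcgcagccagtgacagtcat
Mki67 and Top2a, both of the mitosis list, hold CHR motifs, Mcm6 and Mcm3 of the replication list hold E2F motifs, and Mycn holds both kinds, with the E2F matches of Mcm6 and Mycn in part overlapping on the opposite strand. Aurkb and Birc5, higher in the mitosis list than Mki67, are not among the promoters shown. Either motif was in 15 of 19 mitosis windows and 11 of 22 replication windows.

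The motif shares were counted in windows from 250 bases before to 50 after the annotated start, both strands, 1 window for each of 15247 named genes with a window. A match is a description of letters and not of binding. Of all these genes 1.18% held an E2F motif, against 3.08% of the 1525 called higher, 4.86% of those called higher by at least 1 and 0.69% of the 1306 called lower. The CHR motif was in 15.1% of all, 16.9% of the higher, 25.1% of the higher by at least 1, 40.5% of the higher by at least 2 and 10.1% of the lower genes. CCAAT, the box of the factor NF-Y that often stands beside CHR, followed the same order, from 38.8% of all to 66.5% of those higher by at least 2. The lists differ in which motif they hold: CHR was in 15 of 19 mitosis windows and 3 of 22 replication windows, and E2F in 1 and 8. The Gli motif TGGGTGGTC was in 0.18% of all windows and 0.2% of the higher genes, and the E-box CACGTG was in 8.53% and 9.11%. For YY1's GCCATNTTG the shares were 3.36%, 3.61% and, among lower genes, 1.91%. The median GC content of the windows was 57.7% over all, 59.3% in the higher and 60.3% in the lower genes. In windows of low, middle and high GC content, E2F shares were 1.06%, 3.36% and 4.17% of the genes called higher. They were 0.47%, 1.41% and 1.19% of the genes not called, and 0.35%, 0.84% and 0.74% of those called lower. For the other motifs GC content was not adjusted for.

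**Figure D3:**
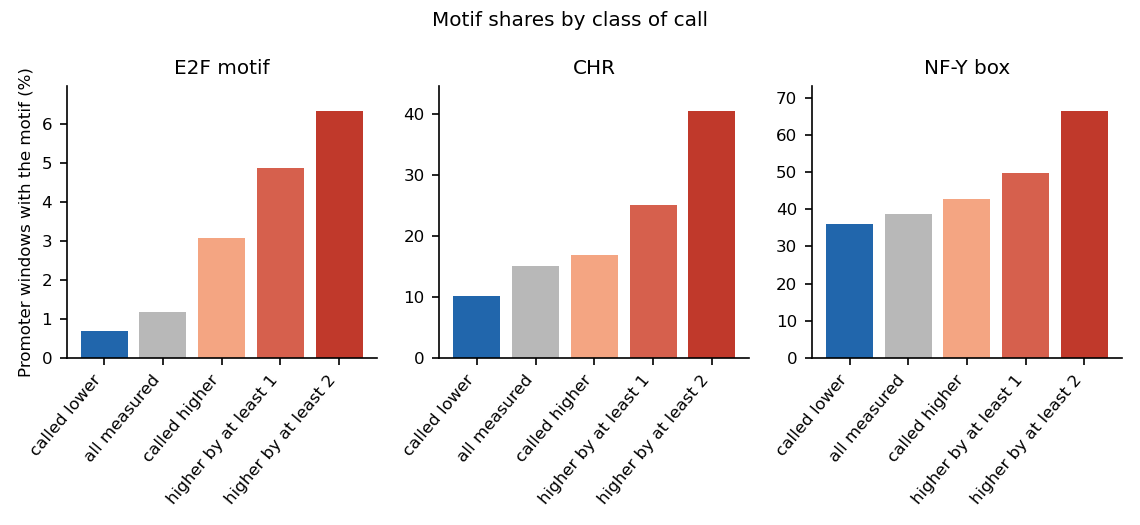
Percent of RefSeq promoter windows (y axis, from 0) that hold an E2F motif, a cell cycle homology region (CHR) or an NF-Y box, for genes called lower, all measured named genes, and genes called higher with no minimum, by at least 1 and by at least 2 on the log2 scale. The bars for all 3 motifs are tallest in the class higher by at least 2.

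The nuclear machinery around replication was also higher. Esco2 and Uhrf1 stood near the top of all genes: Esco2, the cohesin acetyltransferase, averaged 4.19 and Uhrf1, which keeps DNA methylation through replication, 4.01. Exo1, a repair exonuclease, read 3.61, 4.18, 3.60, 4.67 and 3.55 (mean 3.92), and the base excision glycosylase Neil3 averaged 3.51. Of 23 mismatch, base excision and end-joining genes 7 were called higher and none lower. Radx, a protein that guards replication forks, read 1.97, 2.48, 5.09, 4.92 and 4.18, lowest on wild-type 1 and 2, and was not called without wild-type 5 (adjusted p = 0.0576). Of 29 chromatin remodellers and histone chaperones 9 were called higher and 1 lower (median 0.31), and 7, 6, 8, 8 and 7 were higher with each array left out. Chaf1b, of the factor that places histones on new DNA, averaged 3.22, Asf1b 2.51 and Nasp 1.93. Chaf1a, its partner subunit, read 1.54, 1.70, 1.57, 1.52 and 1.54 (mean 1.58 ± 0.07). High mobility group and heterochromatin proteins had 11 of 18 called higher and none lower, with Hmgb2 at 3.24 and Hmgb3 at 1.76. Among deacetylases and methyltransferases 6 of 34 were called higher, led by the Polycomb enzyme Ezh2 (1.91) and the DNA methyltransferase Dnmt3b (1.0). The high mobility group list had 6, 5, 8, 7 and 6 higher calls with each array left out, and the repair list 5, 4, 6, 8 and 5.

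Lists of the nuclear envelope, the pore and core splicing had calls on the higher side and none on the lower, though each also held members with means below 0. Lmnb1, the B-type lamin, read 2.34, 2.59, 2.55, 1.23 and 2.36, lowest on wild-type 4 (mean 2.22), and the lamin B receptor Lbr averaged 1.37. Of 15 lamina genes 7 were called higher and none lower, and of 29 pore and transport genes 11 and none, with Nup37 at 1.46 and Nup43 at 1.28. Core splicing factors had 17 of 32 called higher, none lower and a median of 0.52. The RNA-binding protein Hnrnpab read 1.09, 1.34, 1.44, 1.88 and 1.64 (mean 1.48), and Hnrnpa1 and Hnrnpd averaged 1.08 and 1.04. Rbmx, a splicing regulator on the X chromosome, was almost flat across arrays at 0.95, 1.06, 1.06, 1.08 and 0.88. Neuronal RNA-binding proteins were split, 4 higher and 2 lower of 22: Khdrbs3 and the oncofetal Igf2bp3 averaged 1.13 and 1.04, while Cpeb1, which controls translation at synapses, averaged -0.99. The neuronal list had 2, 2, 3, 3 and 2 higher calls with each array left out. Of the related oncofetal genes named for this comparison, Igf2bp1 (0.22) and Lin28b (-0.46) were not called. The 3 features of Igf2bp1 had 2 means above 0 and 1 below, from -0.061 to 0.705. Higher calls with each array left out numbered 5, 3, 4, 5 and 4 for the lamina list, 7, 4, 8, 11 and 5 for the pore list and 13, 9, 12, 16 and 12 for the splicing list.

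Ribosomal protein genes shifted evenly. The 70 cytosolic ribosomal protein genes were grouped by name after their values were seen, and all 70 lay above 0 on all 5 arrays. Of them 67 were called higher, against a background of 9.84%. Their means ran from 0.27 to 1.68 with a median of 0.89, and the median by array was 0.85, 1.08, 0.89, 0.78 and 0.88. The arrays therefore differed little in this group, in contrast to Atoh1. These genes have many processed pseudogenes, and probes may read several copies. Makers of ribosomes moved less: 14 of 28 nucleolar and RNA polymerase I genes were called higher and none lower, with fibrillarin (Fbl) at 1.21, Nop58 at 0.90 and a median of 0.47. In contrast, none of 23 tRNA synthetase genes was called in either direction, and their median was -0.03. Of 43 genes named as subunits or assembly factors of respiratory complex I, also picked afterwards, none was higher and 2 lower (median -0.04). Among initiation and elongation factors 7 of 30 were called higher and 1 lower, and 5, 4, 4, 5 and 4 were higher with each array left out. The elongation factor pair went opposite ways: Eef1a1, the general form, read 0.65, 0.96, 1.13, 1.14 and 1.04 (mean 0.98), and Eef1a2, the form of mature neurons and muscle, read -0.55, -0.72, -0.48, -1.46 and -0.75 (mean -0.79; not called without wild-type 1, 2, 3 or 5 (adjusted p up to 0.107)). Nucleolar genes called higher with each array left out numbered 9, 4, 9, 13 and 5, and ribosomal protein genes 55, 52, 59, 65 and 57.

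**Figure D4:**
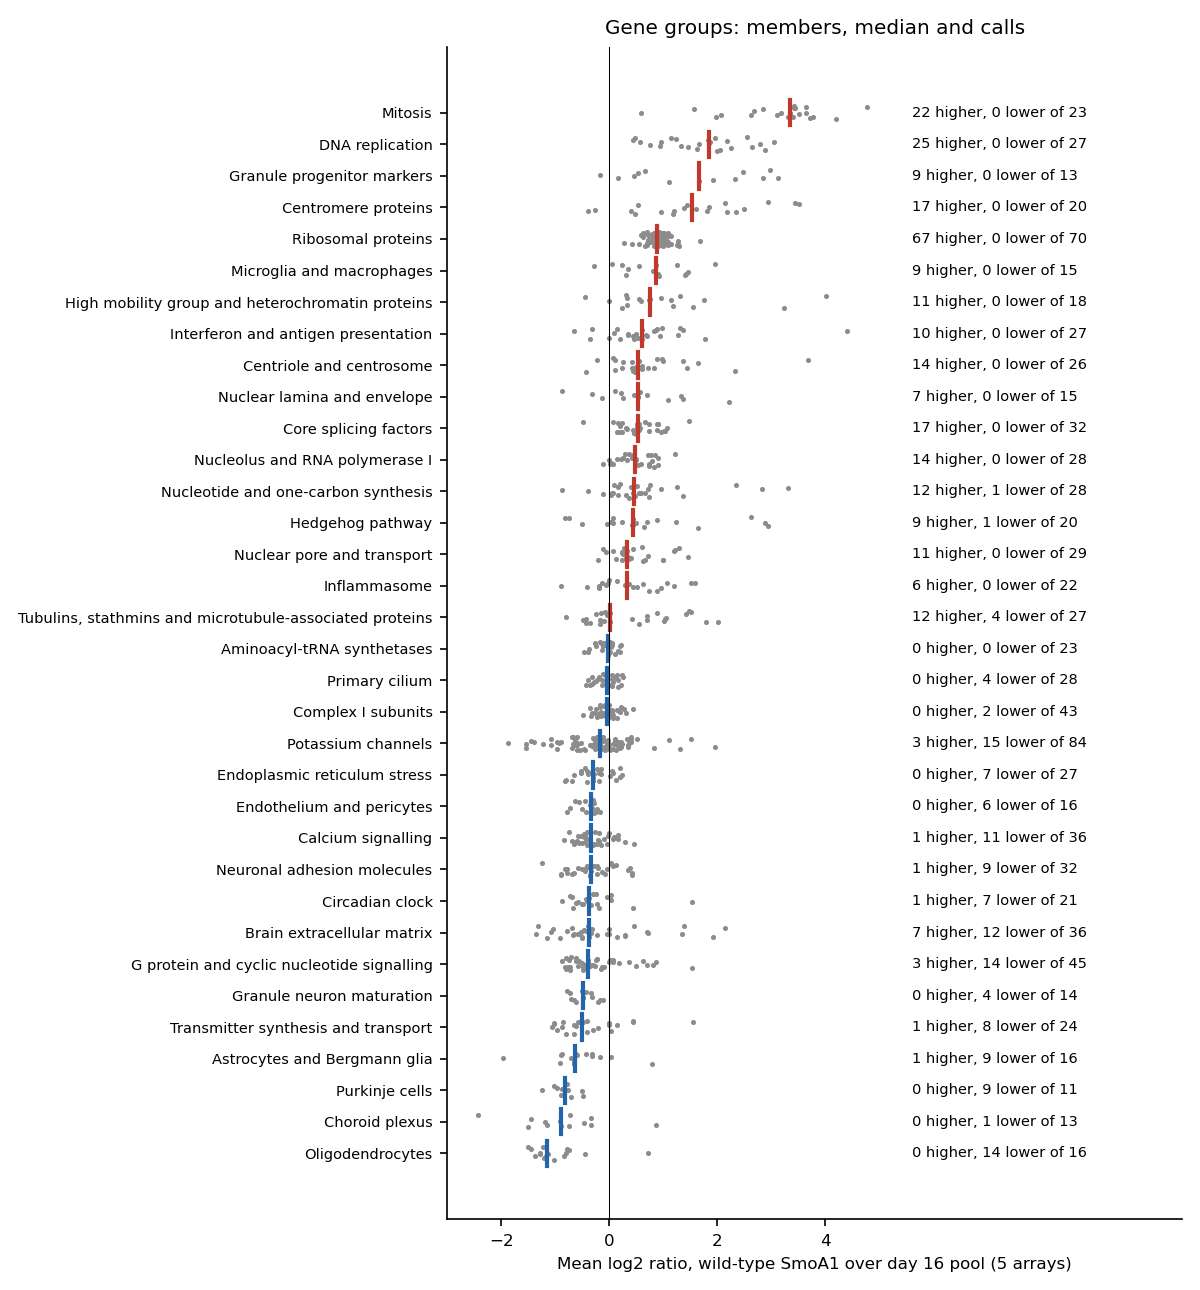
Mean log2 ratio over the day 16 pool of the members of 34 gene groups (x axis), 1 grey point for each measured gene; the coloured bar is the group's median and the numbers at the right give members called higher and lower out of those measured. Mitosis, replication, granule progenitor, centromere and ribosomal groups lie to the right of 0, and oligodendrocyte, Purkinje and astrocyte groups to the left.

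Metabolism divided by pathway. Nucleotide and one-carbon synthesis had 12 of 28 genes called higher and 1 lower. Rrm2, the ribonucleotide reductase subunit, averaged 3.31, thymidine kinase Tk1 2.82 and thymidylate synthase Tyms 2.34, with feature means of Tyms from 0.39 to 3.40. Slc29a1, which carries nucleosides into cells, read 1.82, 2.07, 2.02, 1.87 and 1.57 (mean 1.87). Amino acid carriers went both ways. The leucine carrier Slc43a1 read 1.66, 1.51, 2.03, 2.57 and 2.94 (mean 2.14), higher on wild-type 4 and 5, and the glutamine carrier Slc1a5 read 1.31, 1.57, 1.47, 1.49 and 1.39 (mean 1.44). On the low side were Slc7a10, a serine and glycine carrier (-0.87), and the glycine transporter Slc6a9 (-0.85). Over all 362 solute carriers 50 were called lower and 15 higher, which are 13.8% and 4.14%. Of them 7, 5, 9, 11 and 6 were higher with each array left out. The pentose phosphate and tricarboxylic acid list had 3 of 32 higher and 10 lower, among them mitochondrial Idh2 at 0.84 and the malic enzyme Me1 at -0.61. Ppargc1a, the coactivator of mitochondrial gene expression, averaged -0.68, and the mitochondrial fusion protein Mfn2 -0.61. Lower calls with each array left out numbered 1, 1, 4, 7 and 3 in the cycle list and 17, 12, 24, 39 and 17 among solute carriers. Higher calls in the nucleotide list then numbered 8, 8, 8, 10 and 8.

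Lipid, redox and secretory genes were also mixed. Lpl, lipoprotein lipase, which microglia and other cells use to take up fatty acids, read 1.37, 1.86, 1.68, 1.60 and 1.99 (mean 1.70). The lipid and sterol list had 4 higher and 6 lower of 36 (median -0.13). With each array left out it had 2, 2, 2, 3 and 2 higher and 5, 3, 6, 6 and 3 lower. Among its lower members were Elovl7, a fatty acid elongase, at -1.36 and Gal3st1, which makes sulfatide, at -1.33. Prdx4, a peroxiredoxin of the endoplasmic reticulum, averaged 1.23. No gene of the 27 endoplasmic reticulum stress genes was called higher and 7 were lower, among them Sdf2l1 at -0.80. Gchfr, the regulator of GTP cyclohydrolase in tetrahydrobiopterin synthesis, read -1.55, -2.05, -1.80, -2.42 and -2.35 and had one of the lowest means of all genes (-2.03). Slco4a1, an organic anion carrier, was low and even at -1.72, -1.66, -1.80, -1.62 and -1.58 (mean -1.68 ± 0.08). The sulfotransferase Sult1a1 averaged -1.55, Dct, a melanin enzyme, -1.67, and Dio3, which inactivates thyroid hormone and is imprinted, -1.22. Among thioesterases of acyl-CoA, named afterwards, 6 of 13 were called lower. With each array left out, 2, 2, 3, 5 and 2 stress genes and 1, 2, 1, 5 and 1 thioesterases were called lower.

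The cytoskeleton showed members of 1 family on opposite sides. Among tubulins, stathmins and microtubule-associated proteins 12 of 27 were called higher and 4 lower, and 2, 0, 4, 3 and 0 were lower with each array left out. Tuba1c read 1.42, 2.07, 1.84, 2.81 and 1.88 (mean 2.00), the developmental Tubb2b averaged 1.51, Tubb5 1.47 and Stmn1, which destabilises microtubules in immature cells, 1.79. Tuba4a and Tuba8, of mature cells, averaged -0.49 and -0.81, and their calls were lost without wild-type 1, 2, 4 or 5 (adjusted p up to 0.137) and without wild-type 2 or 5 (adjusted p up to 0.0626). The 3 features of Tuba4a had 2 means below 0 and 1 above, from -0.90 to 0.07. The neurofilaments that fill mature axons were low: Nefh read -0.99, -1.23, -1.23, -1.46 and -1.23 (mean -1.23) and Nefl averaged -1.15. Septins had 2 members higher and 5 lower of 10, with Septin9 at 1.02 and Septin5 at -0.67. Without wild-type 1, 2, 3 or 5 no septin was called lower, Septin5 included. Centriole genes had 14 of 26 called higher and none lower, led by Cep55 (3.68), and 9, 6, 9, 12 and 7 with each array left out. In contrast, none of the 28 primary cilium genes, the organelle through which Smoothened signals, was called higher and 4 were lower (median -0.04), and 0, 0, 0, 2 and 0 were with each array left out.

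Paralog pairs on opposite sides were picked after the values were seen and are given as values. Gpc2, the glypican of dividing neuronal precursors, read 2.76, 2.61, 2.25, 1.05 and 2.05 (mean 2.14) while Gpc5 read -1.03, -0.37, -0.94, -0.60 and -0.96 (mean -0.78). The histone chaperone Nap1l1 averaged 0.50 and its neuronal relative Nap1l5 -0.66. The arginine methyltransferase Prmt1 averaged 0.87 and the brain form Prmt8 -0.66. Mxd3, the member of the Myc network made in dividing cells, averaged 2.55 and Mxd4 -0.44. Olig3 stood at 3.88 and Olig1, of the oligodendrocyte lineage, at -0.74. Vesicular glutamate carriers also parted: Slc17a6, of immature granule neurons among others, averaged 1.55, and Slc17a7, of mature ones, -0.48 with no call (adjusted p = 0.324). Without wild-type 3, Slc17a7 was called lower (mean -0.79, limma adjusted p = 0.0405). Of these genes the calls of Gpc5, Nap1l1, Nap1l5, Prmt8, Mxd4 and Olig1 were lost with at least 1 array left out.

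**Figure D5:**
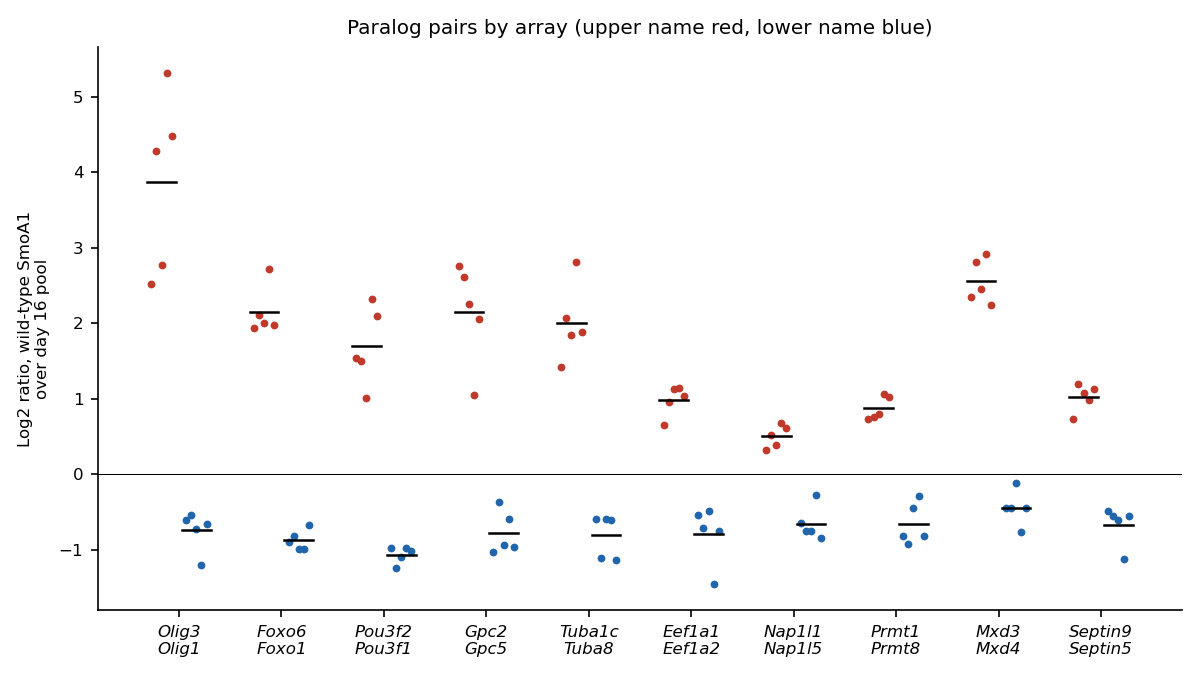
Log2 ratio over the day 16 pool (y axis) of 10 paralog pairs chosen after their values were seen, 1 point for each wild-type array and a bar at the mean, with the member above 0 in red and the member below 0 in blue. In every pair the 5 red points lie above the 5 blue ones.

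Adhesion and matrix genes lay mostly below the pool. Of 36 brain matrix genes 12 were called lower and 7 higher, and of 42 collagens 11 and 2. The proteoglycans Spock3 and Sdc4 averaged -1.35 and -1.33 (features of Sdc4 -2.21 and -0.44), and Col23a1, a membrane collagen, read -0.97, -1.40, -1.22, -1.53 and -1.23 (mean -1.27). On the high side, the hyaluronan synthase Has2 averaged 1.39, the microfibril protein Mfap4 1.93 and Col11a1 0.93. Neuronal adhesion molecules had 9 of 32 called lower and 1 higher, and cadherins 8 of 32 and 2, with Cdh12 at -1.11. Dchs1, a giant cadherin of planar polarity, averaged 0.76. All 9 measured A-class Eph receptors, again picked afterwards, had means below 0 and 4 were called lower. Secreted and growth factor genes included the lowest mean of all called genes, Wif1, an antagonist that binds Wnt ligands, which read -2.50, -3.07, -3.71, -3.44 and -2.30 (mean -3.01 ± 0.60, adjusted p = 0.00307). Plac9a read -2.18, -2.12, -2.37, -2.52 and -2.18 (mean -2.27), close together on all arrays, and the actin-severing protein Gsn averaged -1.70. Pdgfra, the growth factor receptor of oligodendrocyte precursors, went the other way at 1.80 over 11 features. Lower calls with each array left out numbered 5, 5, 7, 12 and 5 for the matrix list and 3, 2, 7, 8 and 4 for collagens. They numbered 3, 2, 5, 7 and 4 for adhesion molecules, 4, 3, 7, 6 and 5 for cadherins and 1, 1, 2, 5 and 2 for Eph receptors.

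Signalling genes of mature neurons were low as groups. Calcium signalling had 11 of 36 genes called lower and 1 higher, G protein and cyclic nucleotide signalling 14 of 45 and 3, and transmitter synthesis and transport 8 of 24 and 1. The Purkinje list had 9 of 11 called lower, none higher and a median of -0.82. Calb1, the calcium buffer of Purkinje cells, read -1.26, -1.43, -1.34, -0.89 and -1.27 (mean -1.24), and their glutamate carrier Slc1a6 averaged -1.03. The glycine transporter Slc6a5 of inhibitory neurons averaged -1.02, the opioid precursor Penk -1.03 and the sodium pump subunit Atp1b1 -0.98. Of 84 potassium channel genes and their partners 15 were called lower and 3 higher. Kcna5 read -2.46, -2.02, -2.38, -1.28 and -1.23, lowest on wild-type 1 to 3 (mean -1.87; call lost without wild-type 2 (adjusted p = 0.0504)), and the channel partner Kcnip1 averaged -1.39. Cabp7 and Necab2, calcium-binding proteins of neurons, averaged -1.63 and -1.36. With each array left out, 4, 2, 8, 8 and 3 calcium genes and 3, 2, 7, 9 and 4 G protein genes were called lower. The same counts were 6, 4, 6, 7 and 5 for the transmitter list, 6, 5, 5, 8 and 6 for the Purkinje list and 9, 5, 13, 15 and 8 for potassium channels.

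Receptor lists were mixed too. Muscarinic, nicotinic, serotonin and dopamine receptors had 2 higher and 2 lower of 27. Neuropeptides and their receptors had 4 and 8 of 41, and 2, 2, 2, 2 and 2 higher and 3, 3, 4, 5 and 3 lower with each array left out. Chrna3, a nicotinic receptor subunit of autonomic ganglia and some brain nuclei, read 2.96, 3.70, 3.59, 3.20 and 3.70, a mean of 3.43 ± 0.33 or 10.8-fold. Its chromosomal neighbour Chrna5 averaged 1.09 and was not called without wild-type 3 (adjusted p = 0.0565). The somatostatin receptor Sstr2, known from granule progenitors, read 2.42, 2.32, 2.09, 2.66 and 2.78 (mean 2.45), while the ligand gene Sst averaged -1.07 with no call without wild-type 1, 2, 3, 4 or 5 (adjusted p up to 0.126). The galanin receptor Galr1 averaged 1.5 and the calcium-dependent phosphodiesterase Pde1c 1.53. Chrna3, Sstr2, Galr1 and Pde1c lay above 0 on every array.

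Glial genes went in unlike directions. Of 16 oligodendrocyte genes 14 were called lower, none higher, and the median was -1.15. Myrf alone had a mean above 0 (0.71), without a call. Mag, a myelin adhesion protein, read -1.42, -1.46, -1.21, -2.09 and -1.38 (mean -1.51), and the myelin lipid-binding Mal averaged -1.37 with all arrays between -1.51 and -1.22. Mbp, a main myelin protein, averaged -0.80 over 12 features, 1 of which had a mean above 0, and its call was lost without wild-type 1, 2 or 5 (adjusted p up to 0.0758). Astrocyte and Bergmann glia genes had 9 of 16 lower and 1 higher. Gdf10, a growth factor of Bergmann glia, read -1.68, -1.96, -2.37, -2.14 and -1.70 (mean -1.97). Fabp7, the fatty acid binder of radial glia, was the member called higher at 0.80. Gfap, the astrocyte filament that rises in gliosis, was not called (-0.18, adjusted p = 0.501). Lower calls with each array left out numbered 11, 8, 14, 13 and 11 for oligodendrocytes and 6, 6, 6, 10 and 6 for astrocytes.

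Microglial genes lay mostly above the pool, and other immune lists were mixed. Of 15 microglia and macrophage genes 9 were called higher and none lower, with a median of 0.86. The other 6 were not called. The lowest means were those of Tmem119 (-0.28), Ptprc (0.05), Siglech (0.23), Itgam (0.31) and P2ry12 (0.34). Lyz2, lysozyme, read 1.68, 2.19, 1.55, 2.03 and 2.34 (mean 1.96), and Aif1, a marker of microglia, read 0.98, 1.32, 1.15, 1.86 and 1.83 (mean 1.43). Cxcl10, a chemokine induced by interferon, read 3.87, 5.75, 2.90, 4.48 and 4.99, a mean of 4.40 ± 1.08 or 21.1-fold, highest on wild-type 2 and lowest on wild-type 3. The interferon and antigen list had 10 of 27 higher and none lower, but its other called members were far smaller, with Isg15 at 1.31 and Ifit1 at 1.36. Both fell short of the call without wild-type 1, 2 or 5 (adjusted p up to 0.0636) and without wild-type 1, 2, 3, 4 or 5 (adjusted p up to 0.145), and the list had 2, 1, 3, 4 and 1 calls with each array left out. Of 22 inflammasome genes 6 were called higher and none lower. Pycard read 0.90, 1.17, 0.72, 1.28 and 1.32 (mean 1.08), and Gsdmd, the pore protein cut by inflammatory caspases, read 1.45, 1.57, 1.35, 1.77 and 1.76 (mean 1.58). Casp1 averaged 0.96 (call lost without wild-type 2, 3, 4 or 5 (adjusted p up to 0.0815)) and the cytokine gene Il1b 0.44 with no call. Ccl19, a lymphoid chemokine, was low at -2.72, -2.15, -0.48, -1.87 and -2.40 (mean -1.92), nearest 0 on wild-type 3, and not called without wild-type 1, 2, 4 or 5 (adjusted p up to 0.0907). Lymphocyte and neutrophil genes gave 2 calls of 23, the higher being Ighm at 0.90. The inflammasome list had 5, 2, 4, 3 and 3 calls with each array left out, and the microglia list 7, 6, 7, 8 and 8.

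Cell death, clock and imprinted lists had calls in both directions. Among p53 targets and cell death genes 7 of 29 were called higher and 6 lower. The inhibitor Cdkn2c averaged 1.81 and the death activator Bbc3 0.76, while Phlda3 read -0.87, -0.83, -0.89, -0.68 and -0.84 (mean -0.82). The circadian list had 7 of 21 lower and 1 higher, with Hlf at -0.73 and Timeless, which also serves replication forks in mammals, at 1.53. The labels used here give no time of day of collection. Imprinted genes had 4 of 41 higher and 7 lower, or 9.76% and 17.1%. The higher share is near the background of 9.84%, and the background of lower calls is 8.74%. Mest averaged 1.23, and Igf2, growth factor and also a meningeal and choroid plexus transcript, -0.91 over 11 features. Of the imprinted genes 2, 2, 2, 3 and 2 were higher with each array left out. With each array left out, 1, 2, 4, 6 and 4 clock genes and 4, 3, 5, 8 and 5 imprinted genes were called lower. The p53 list then had 4, 3, 6, 7 and 3 higher and 1, 2, 2, 2 and 3 lower calls.

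Of the called named genes 2945 of 3548 (83%) belong to none of the lists of symbols, against 90.8% of all named genes. Among the highest of these were Cdca7 and Cdca7l, paralogs of which the first is a known target of Myc, and both had nearly the same mean. Cdca7 read 3.19, 3.61, 3.55, 4.08 and 3.61 (mean 3.61) and Cdca7l read 3.05, 2.58, 3.16, 5.43 and 3.71 (mean 3.59), the latter highest on wild-type 4. Lockd, a long noncoding RNA gene beside Cdkn1b, read 3.05, 3.38, 3.23, 4.16 and 3.91 (mean 3.54), and the kinetochore genes Spc25 and Knl1 averaged 3.53 and 3.39. Aunip, a partner of the Aurora A kinase, averaged 3.43. Pbk, a mitotic kinase, and Cks2, a small subunit that binds cyclin-dependent kinases, averaged 4.06 and 3.74. Histone genes were among them too. Grouped by current name after the values were seen, 23 of 34 were called higher and none lower, led by H1f5 (3.98) and H2ac15 (3.83), and 16, 14, 19, 22 and 16 were with each array left out. Ier5l, a gene of the immediate early response family, had the smallest SD of the called genes with a mean of at least 1 in size, at 2.17, 2.28, 2.24, 2.17 and 2.15 (mean 2.20 ± 0.05). Sertad4 (1.03) and the cyclin Ccnf (1.32) also varied little, with SDs of 0.08 and 0.09.

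On the lower side outside the lists were genes of several tissues. Tspan2 and Tmem125, the first a tetraspanin of myelinating cells, averaged -1.44 and -1.36, and Tmem254a read -1.54, -1.66, -1.79, -1.51 and -1.44 (mean -1.59). Dgkh, a diacylglycerol kinase, averaged -1.57 and Ppp1r16b, a regulatory subunit of protein phosphatase 1, -1.44 over 3 features. Bfsp2, a lens filament protein, read -1.42, -1.43, -1.80, -0.98 and -1.33 (mean -1.39). Corin, the protease that activates natriuretic peptide in the heart, averaged -1.32, Sycp1, of the meiotic synaptonemal complex, -1.43, Pkp2, a desmosome protein, -1.42 and the epithelial factor Elf5 -1.44. Bfsp2, Corin, Sycp1, Pkp2 and Elf5 are best known from other organs, and each stayed called with any 1 array left out. Nkx2-9, a homeobox gene of the ventral neural tube that Hedgehog induces there, read -1.71, -1.05, -2.18, -1.17 and -1.51 (mean -1.53), so it lay on the other side from Foxa2. Il12rb1, a receptor subunit for interleukins, averaged -1.52. Eps8l2, an actin regulator of hair cells, was even across arrays at -0.90, -1.06, -1.04, -0.99 and -1.11.

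Other families of regulators and enzymes gave smaller counts, to be read against 9.84% higher and 8.74% lower. Of 327 Zfp genes 27 were called higher and 13 lower (8.26% and 3.98%), the highest being Zfp184 at 1.67. With each array left out 8, 4, 12, 19 and 6 Zfp genes were higher and 3, 3, 8, 10 and 5 lower. Nuclear hormone receptors had 5 higher and 4 lower of 35, with Nr2f1 at 0.94, and 1, 1, 2, 3 and 1 higher and 1, 1, 2, 3 and 3 lower with each array left out. Sox factors had 4 and 2 of 19, with the endothelial Sox18 at 1.43. Rab GTPases had 3 and 8 of 70, with Rab39 at 1.52 and Rab37 at -0.81, and 3, 1, 6, 8 and 3 lower with each array left out. F-box genes had 2 and 4 of 68, and 2, 1, 1, 3 and 1 lower with each array left out. The called ones included Fbxo5, which holds back the anaphase-promoting complex, at 2.02, 2.27, 2.22, 2.67 and 2.24 (mean 2.28), and Fbxw7, which marks Myc and cyclin E for breakdown, at -0.65, -0.92, -0.92, -0.97 and -0.60 (mean -0.81). Fbxo5 lay above 0 and Fbxw7 below it on every array. Klf15, a factor induced by glucocorticoid, averaged -0.83 and Klf11 0.92. Cytochrome P450 genes had 4 higher and 6 lower of 83, among them Cyp39a1, which acts on oxysterols, at 1.80 and Cyp2s1 at -1.33, and 1, 1, 4, 4 and 1 higher and 4, 3, 6, 5 and 2 lower with each array left out. Proteasome genes gave 7 higher and none lower of 34, and 4, 0, 2, 4 and 2 with each array left out. By chromosome the share of named genes called higher ran from 8.08% to 13.7% and lower from 6.02% to 11.3%, over the autosomes and X.

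Large receptor families of other organs gave few calls. Of 905 olfactory receptor genes 15 were called higher and 2 lower, or 1.66% and 0.221%, and of 133 vomeronasal receptors 0 and 1. These shares lie far under the background. Most members nonetheless had means above 0, 710 of the olfactory and 96 of the vomeronasal receptors. The medians were 0.23 and 0.18, against 0.02 over all named genes. On the knockout arrays the medians were 0.21 and 0.17. The cause of this shift was not tested. The largest SD of all named genes was that of a member: Olfr815 read 0.47, 0.34, 1.44, -10.84 and 0 and Vmn2r7 -0.49, -0.13, 8.29, -0.44 and -1.60, each with 1 array far from the other 4. Keratins had 2 higher and 4 lower of 40, and 2, 1, 3, 4 and 2 lower with each array left out. Krt12, a cornea keratin, read 1.82, 2.63, 2.31, 2.08 and 1.31 (mean 2.03). The olfactory family had 2, 2, 1, 11 and 4 higher calls with each array left out.

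Markers of tissues beside the cerebellum varied by array. Ttr, the main choroid plexus transcript, read -1.06, 1.08, -4.48, -3.27 and 0.19, so wild-type 3 and 4 lay far below the pool and wild-type 2 above it, and it was not called (adjusted p = 0.314). The choroid plexus list gave 1 call of 13, with array medians from -1.87 to 0.53. Meninges gave 3 calls lower of 16, endothelium and pericytes 6 of 16, and ependyma 2 lower and 1 higher of 14. Lower calls with each array left out numbered 0, 0, 1, 2 and 2 for meninges, 0, 0, 2, 7 and 1 for endothelium and 0, 0, 0, 0 and 0 for ependyma. Medulla and pons markers gave 2 of 20, forebrain and midbrain markers 2 higher (Lhx2 and Neurod6) and 1 lower of 16, muscle and skin markers 2 lower of 15, and red blood cell markers none of 8. The part of dissection or of the sex of the mice in any result was not tested. The Y-linked gene Eif2s3y read -0.17, -0.11, -6.39, -8.64 and -8.69 and Xist read 0.19, 0.12, 1.58, -0.05 and 1.56, so the arrays were unlike each other in sex-linked genes, with Eif2s3y near 0 on wild-type 1 and 2 and far below the pool on the other 3. On wild-type 4 both genes were at or below 0.

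Set beside the arrays without Pycard, against the same pool, the groups named next lay on the same side of 0 and nearer to it. The median of the mitosis list was 3.34 in Pycard wild-type and 1.97 in knockout arrays, of the ribosomal proteins 0.89 and 0.56, of the oligodendrocyte list -1.15 and -0.74, of the Purkinje list -0.82 and -0.30, and of the microglia list 0.86 and 0.42. Foxa2 averaged 6.12 and 4.45, Cxcl10 4.40 and 3.05, Wif1 -3.01 and -2.21. Not all lists lay nearer 0 on the knockout arrays. The endoplasmic reticulum stress median was -0.29 and -0.34, and that of serine, amino acid and polyamine synthesis -0.10 and -0.20. The SD over features was 0.552, 0.560, 0.882 and 0.739 on knockout 1 to 4. The part of this array spread in the differences was not tested. The knockout values of Foxa2 were 1.03, 5.03, 5.55 and 6.20, and without knockout 1 their mean was 5.59 and the difference -0.53. Tested directly in limma over all 9 arrays, where the pool cancels, only 5 of 30654 values differed (0.0163%), and none with the replicate number as a block. Pycard, the deleted gene, averaged 1.08 on the wild-type and -2.39 on the knockout arrays, a difference of -3.47 (adjusted p = 0.0131). With 1 array left out its adjusted p ran from 0.00203 to 0.0962, and with the block it was 0.751. For Foxa2 the difference of -1.67 had an adjusted p of 0.932, for Aurkb the difference was -1.63 (0.917) and for Wif1 0.80 (0.917), so none of these 3 passed.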

How the data were processed

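The authors deposited 1 log2 ratio for each of 45220 features and 9 arrays, made with Agilent Feature Extraction per the submitters' processing notes. Dyes and groups are per the labels, the base of the logarithm was read from the values, and the background correction and dye normalization were not given in the labels or file headers read. Symbols came from the platform annotation: 33653 features had 1 symbol, 56 several and 11511 none. Features of 1 symbol were averaged, which gave 19087 named genes and 30654 values in all with the unnamed features.

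Means of the 5 arrays were tested against 0 (two-sided) with limma 3.58.1 in R 4.3.3, by lmFit with an intercept and eBayes, and p-values were adjusted by Benjamini-Hochberg over all values. The difference between knockout and wild-type arrays was fitted on all 9. Tables and figures were made with Python 3.11.15.

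Genes were named by rule: the 25 highest and 25 lowest called genes, 12 on each side in no list, the 3 largest in each direction and the smallest adjusted p of each list, a fixed set, and the 8 largest and 8 smallest SDs. Exceptions are said to have been chosen after their values were seen. The genes, lists and families were chosen with earlier results of these data known. After each group's mean was taken off, same-numbered wild-type and knockout arrays had Pearson correlations of 0.251, 0.214, 0.347 and 0.204. Some unlike-numbered pairs were as high (0.236 for wild-type 1 with knockout 2 and 0.247 for wild-type 5 with knockout 4), so the sign of pairing is weak. The numbers, taken from the source names in the labels, were used as a block in an alternative. Other alternatives changed the scaling, the treatment of exact zeros, the arrays in the fit, the prior, the array weights, the filter, the averaging of features and the threshold. With ratios alone, precision is set by how many arrays there are and by the spread between them. The list of histone genes by old symbol prefix matched no gene and was replaced by one on current names.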

Additional observations from a re-analysis of the deposited data

Results flagged for a closer look

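Among 206 named genes looked at array by array, 17 had 1 of the 5 wild-type arrays far from the other 4, as measured by the gap to the nearest array over the whole range. In unselected groups of 5 from a normal distribution, chance gives such a value in about 1 of 20. The 206 genes were picked in part by their calls or SDs, so the 17 cannot be set against that rate. Of the 17, 10 were on wild-type 4, 3 on wild-type 3, 3 on wild-type 5, 1 on wild-type 2 and none on wild-type 1.

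On wild-type 4, genes above 0 stood apart in both directions. The thymidine kinase Tk1 at 3.283 and Foxo6 at 2.725 were above the other arrays, while Lmnb1 at 1.234 was below them. Genes below 0 were lower still on that array, with Mag at -2.091, Eef1a2 at -1.46, Olig1 at -1.198 and Septin5 at -1.1195. Dio3 at -0.759 and Phlda3 at -0.677 were nearer 0 than on the other arrays. Olfr815 stood at -10.839.

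On wild-type 3, Vmn2r7 was at 8.288, Il12rb1 at -2.354 and Sertad4 at 1.17. On wild-type 5, Uhrf1 was at 3.327, below its other arrays, Slc6a5 at -1.496, and Cdh12 at -0.724, nearer 0 than its other arrays. Chaf1a on wild-type 2 was at 1.70, in a gene whose arrays otherwise lay within a narrow range.

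Pycard differed between the genotypes, by -3.4718 as knockout minus wild-type in limma over all 9 arrays.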

How the results depend on the processing

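The count of 4841 called values fell or grew with the settings. No called gene that is printed reversed its direction under any setting run. Of the called values 4838 had all 5 arrays on one side of 0, so leaving out or weighting arrays could not reverse them. The lack of reversals is therefore no check of the calls. No list median past 0.1 in size changed sign under another scaling. The count was 7650 with all 9 arrays in the fit, 8961 with array weights and 7690 with each feature tested singly. It was 1500 at an adjusted p under 0.01 and 1400 with a mean of at least 1 in size. With the letter-titled arrays alone it was 2630 and with the 2 number-titled arrays alone 0. Leaving out 1 array gave 1635 to 4078. For the weighted fit and for the fits of fewer arrays the cause of the change was not tested beyond their construction. Of the 193 called genes among those printed, 167 stayed called without each array in turn. For the difference between genotypes, 5 values were called, 0 with the replicate number as a block (1868 at an unadjusted p under 0.05, against 1656 without it), and 1 to 6 with 1 array left out. With a mean of at least 1 required, promoter shares among higher genes were 4.86% for E2F, 25.1% for CHR and 49.6% for CCAAT. Centring, quantile normalization, a common scale, the trended prior, the title block, zeros as missing, the filter and adjustment over named genes alone kept the count within 1.5 times. Signal over background could not be assessed from ratios.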
